A study of Mus musculus with 78 samples.

Results

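The clustered protocadherin genes (Pcdha, Pcdhb and Pcdhg) were followed through TRIM28 degradation in mouse embryonic stem cells (mESCs). Members were taken by gene name and position: every gene ID on chromosome 18 whose name in the RNA-seq tables began with Pcdha, with Pcdhb and a number, or with Pcdhg. This gave 58 gene IDs of the 54446 listed, 14 in the Pcdha cluster, 22 in the Pcdhb cluster and 22 in the Pcdhg cluster. The 58 IDs carried 57 symbols, because ENSMUSG00000007440 and ENSMUSG00000102206 were both named Pcdha11. Every member was also present among the 54435 gene IDs of the nascent RNA table. On mm10 the members ran along the plus strand in the order Pcdha, Pcdhb and Pcdhg. The Pcdha genes spanned chr18:36930184-37187661, the Pcdhb genes chr18:37264938-37524479 and the Pcdhg genes chr18:37661793-37841873. Repeats, read as the soft-masked bases of the genome, took up 40.1% of the Pcdha span, 38.0% of the Pcdhb span and 20.5% of the Pcdhg span.

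Clustered protocadherins are cadherin-family adhesion proteins of the neuronal surface. Neurons express different mixtures of them from alternative promoters, and like mixtures on facing membranes give the cells a recognition code used in self-avoidance and circuit assembly. Each Pcdha or Pcdhg gene has its own large first exon, which encodes the extracellular domain and is spliced to 3 constant exons shared by the whole cluster, whereas Pcdhb genes have no shared exons. The last genes of the Pcdha and Pcdhg clusters (Pcdhac1, Pcdhac2, Pcdhgc3, Pcdhgc4 and Pcdhgc5) are called C-type and are less subject to random choice than the others. CTCF, cohesin, DNA methylation and H3K9 methylation are all known to act on promoter choice in these clusters.

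The cells were V6.5 mESCs, and the main line carried an FKBP tag on endogenous Trim28, so that 500 nM dTAG-13 sends the TRIM28 protein to degradation. The line was grown from picked colonies and is a clone. RNA-seq of this line covered DMSO, labelled 0 h, and exposure to dTAG-13 for 2 h, 6 h, 24 h and 96 h. TT-SLAM-seq, which sequences RNA labelled with 4-thiouridine in a short pulse, covered DMSO, also labelled 0 h, and 2 h, 6 h and 24 h. Neither time course has DMSO libraries labelled with a later time, so dTAG-13 and time in culture cannot be told apart in them. ChIP-seq of H3K9me3, H3K27Ac, RNAPII and MED23 compared DMSO with 24 h of dTAG-13. The growth protocol of this line describes removal of its feeder fibroblasts (MEFs) before experiments, as do the study's methods for mESCs in general. Parental V6.5 mESCs carried no tag, received no treatment and grew on CD1 feeders, by a protocol label that describes no removal step. The shERV line carries doxycycline (Dox) inducible hairpins against endogenous retrovirus repeats on the same tagged background, and was grown on CD1 feeders and sequenced in DMSO, with dTAG-13 and with dTAG-13 and Dox after 24 h. Its treatment labels name Dox for the third group, while its protocols describe pre-treatment with 2 µg/mL Dox for all 3 groups, so the Dox history of the first 2 groups rests on the shorter label. Neural progenitor cells (NPCs) were sequenced in DMSO. Each RNA group had 3 libraries. The study calls its replicates biological, without the labels naming separate cultures, so p-values measure the spread between libraries, whatever its source.

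RNA-seq levels are TPM, transcript abundance scaled to length and depth, and TT-SLAM-seq levels are FPKM, fragments scaled to length and depth. Relative sequencing depth ran from 0.279 of the median library, in replicate 1 of 24 h dTAG-13, to 1.51, and the other RNA-seq libraries were at 0.648 or more. The Trim28 mRNA itself stood between 622 and 626 TPM in DMSO, between 365 and 382 after 24 h and between 185 and 204 after 96 h, and at 1387 to 1418 TPM in parental cells, but the tag acts on the protein and mRNA does not check its degradation. Marker lists placed the DMSO mESCs and the NPCs where their labels did: 9 pluripotency markers summed to between 4888 and 5299 TPM in DMSO mESCs and to between 6.82 and 7.44 in NPCs, where Pou5f1, Utf1 and Zfp42 were listed at 0 in each library. In bulk RNA, fewer cells of a type and less RNA per cell cannot be told apart. A member was called when limma gave a Benjamini-Hochberg adjusted p below 0.05 and a change over 2-fold on the log2(TPM + 0.5) or log2(FPKM + 0.5) scale, which understates changes of low genes. Beside each count of called members in a main comparison stands the percentage of all tested genes called in the same direction. Counts in the marker and comparison lists are given with the same percentages.

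In DMSO mESCs only the Pcdhg cluster was expressed at an appreciable level. The Pcdhg genes summed to 58.1, 58.0 and 57.0 TPM in the 3 libraries, against 0.794, 0.866 and 0.626 TPM for the Pcdha genes and 0.807, 0.791 and 0.986 TPM for the Pcdhb genes. In mean level, 19 of 22 Pcdhg members reached 1 TPM in DMSO, and 0 of 14 Pcdha and 0 of 22 Pcdhb members did so. The median member stood at 0.0406 TPM in Pcdha, 0.0233 TPM in Pcdhb and 1.76 TPM in Pcdhg. All 22 Pcdhg members exceeded a mean of 0.1 TPM, as did 3 Pcdha and 3 Pcdhb members.

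With dTAG-13, the summed level of each cluster stayed near that in DMSO at 2 h, as did the Pcdhb and Pcdhg sums at 6 h. The Pcdha sum at 6 h was 0.911, 0.895 and 0.992 TPM, 1.22 times DMSO and above all 3 DMSO libraries. In mean, every cluster was higher at 24 h and 96 h. Pcdhg sums were 56.5, 52.9 and 54.5 TPM at 2 h and 54.1, 56.3 and 56.0 TPM at 6 h. In each case the sums lay below the 3 DMSO libraries, as did 19.9% and 20.2% of all tested genes. The Pcdhg sums were 72.2, 75.2 and 77.1 TPM at 24 h and 149.9, 150.6 and 147.8 TPM at 96 h, 1.30 and 2.59 times the DMSO mean. The Pcdha sum was 1.21, 1.55 and 1.48 TPM at 24 h and 2.17, 2.29 and 2.41 TPM at 96 h, 1.86 and 3.00 times DMSO. The Pcdhb sum was 0.864, 1.05 and 1.46 TPM at 24 h, overlapping DMSO, and 2.88, 2.90 and 3.09 TPM at 96 h, 3.43 times DMSO. At 96 h the 3 libraries of every cluster lay above all 3 DMSO libraries, as did those of 44.4% of all tested genes. The Pcdha and Pcdhb sums still came to less than 3.1 TPM. Without the C-type genes the Pcdhg sum was 1.07 times DMSO at 24 h and 1.95 times at 96 h, so most of the difference at 24 h lay in the C-type genes. No test was run on these sums.

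**Figure D1:**
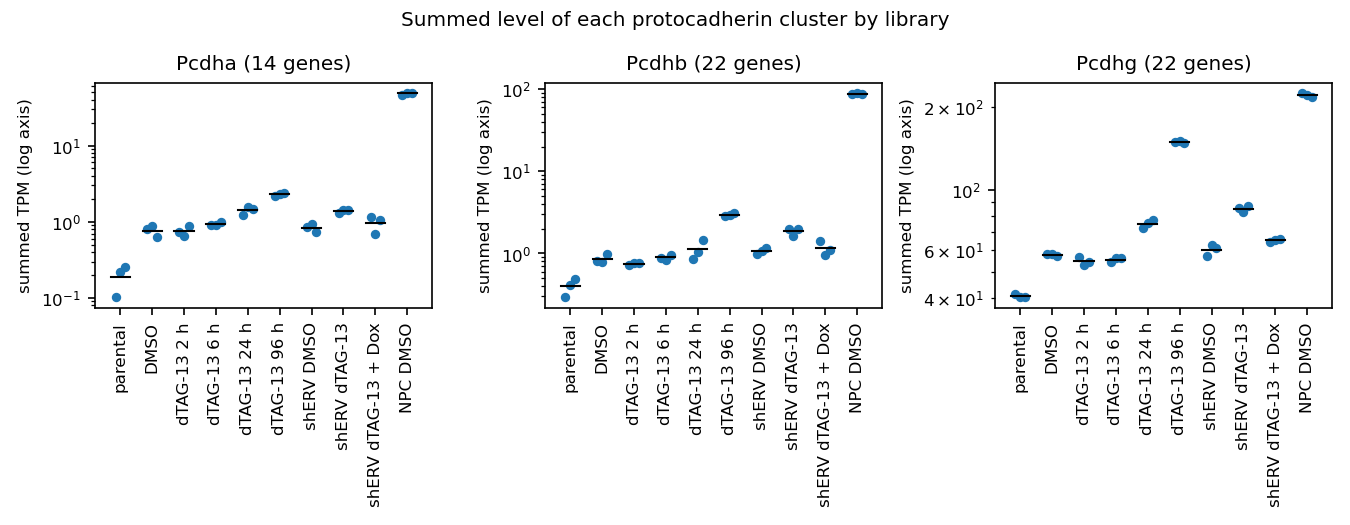
Summed TPM of the Pcdha, Pcdhb and Pcdhg genes on log axes, with 1 point per library and a line at the mean of the 3 libraries of each group. The 3 libraries at 96 h of dTAG-13 lie above the 3 DMSO libraries in each panel, and NPCs lie highest, with means of 48.4, 88.1 and 222 TPM.

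Within the Pcdhg cluster, the sum was far more even between replicates than its members were. The coefficient of variation of the sum over the 3 DMSO libraries was 1.04%, and those of the 22 members ran from 5.88% to 150% with a median of 28.0%. Pcdhga6 was the extreme case, at 7.55, 0.584 and 0.17 TPM in DMSO. The members share their constant exons, so reads there can be assigned to any of them, and the split of the sum among members is less certain than the sum. Pcdhgc3 alone made up 18.5%, 22.4% and 20.4% of the Pcdhg sum in DMSO, 33.0%, 33.6% and 31.5% at 24 h and 36.1%, 34.9% and 38.6% at 96 h of dTAG-13. In mean TPM over the 30 RNA-seq libraries, Pcdhgc3 stood first in its cluster at 26.9, followed by Pcdhga11 at 5.88 and Pcdhga2 at 4.96. Pcdhga11 stood at 4.68, 6.61 and 5.96 TPM in DMSO and 8.58, 7.06 and 7.92 TPM at 96 h, a log2 difference of 0.43 (SE 0.14, limma adjusted p = 0.0101) that did not reach 2-fold. Pcdhga2 ranged from 1.77 to 7.72 TPM in DMSO and from 5.82 to 9.18 TPM at 96 h, so that its groups overlapped.

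**Figure D2:**
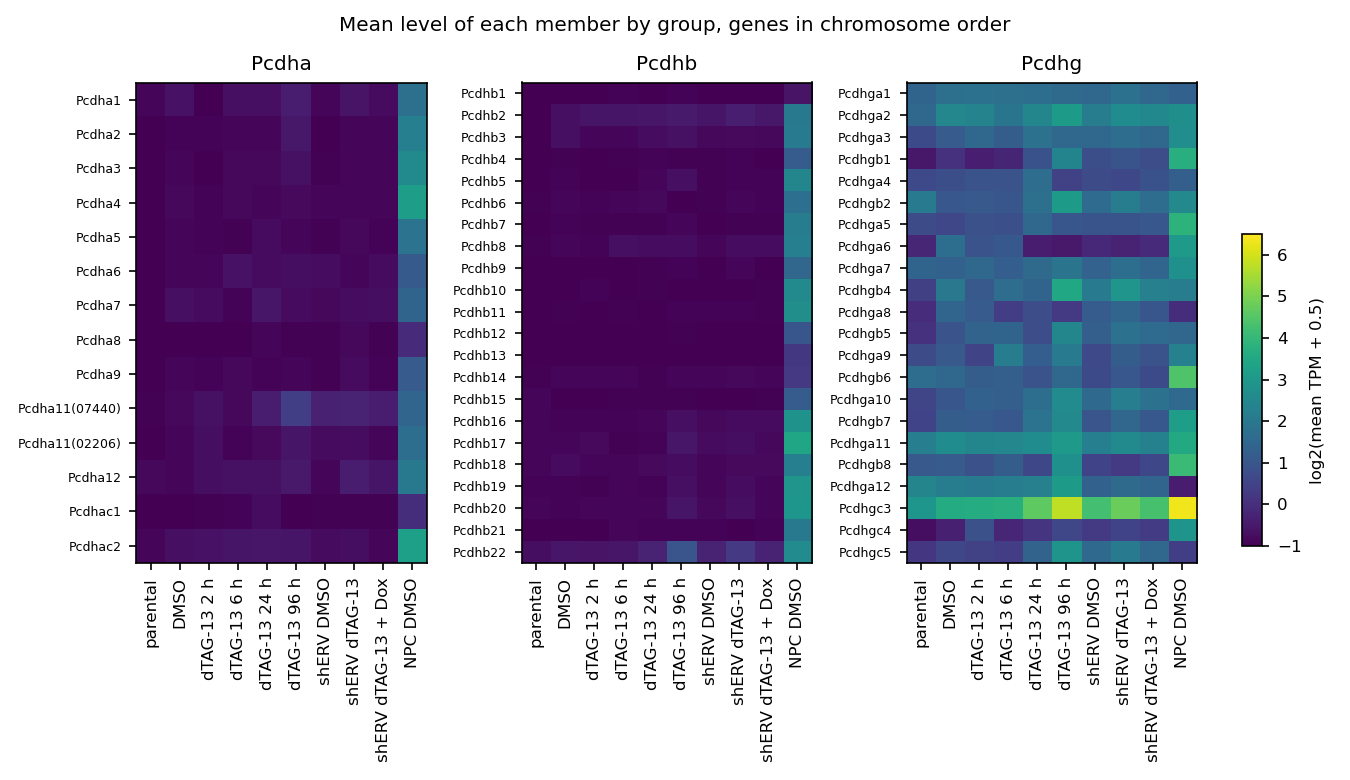
Mean level of each of the 58 members in the 10 RNA-seq groups, as log2 of the mean TPM of 3 libraries plus 0.5, with genes in chromosome order in 3 panels. Pcdha and Pcdhb members stay near the floor of the scale in mESCs and are higher in NPCs, and Pcdhgc3 is the brightest row of the Pcdhg panel, at 11.8 TPM in DMSO, 54.5 TPM at 96 h and 81.2 TPM in NPCs.

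After 2 h of dTAG-13, 0 of 23 tested members were called in either direction, beside 0.251% of all tested genes higher and 0.123% lower, and 0 of 23 had an unadjusted p below 0.05. The 23 tested members were the 22 Pcdhg genes and Pcdhb22. The other 35 members reached 1 TPM in fewer than 3 libraries of the time course. After 6 h, 0 members were called higher (0.776% of all genes) and 1 was called lower (0.19%). That gene, Pcdhga8, stood at 1.56, 2.74 and 2.39 TPM in DMSO and 0.977, 0.799 and 0.583 TPM at 6 h, and its log2 change was -1.07 (SE 0.20, limma adjusted p = 0.00128). The 6 h libraries all lay below the DMSO libraries. The call was lost without DMSO replicate 2 or without 6 h replicate 3, where the change came to less than 2-fold (-0.93 at the smallest).

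After 24 h, 1 of 23 tested members was called higher and 0 lower, beside 10.1% and 2.01% of all tested genes. Pcdhgc3, a C-type gene at chr18:37806364-37841873 with broad neuronal expression, stood at 10.8, 13 and 11.6 TPM in DMSO and 23.8, 25.2 and 24.3 TPM at 24 h. Its log2 change was 1.02 (SE 0.08, limma adjusted p = 4.56e-08), and the groups did not overlap. The change was 0.73 when each library was centred on its median gene, and the call was also lost without DMSO replicate 1, so the rise was close to 2-fold and its size depended on scaling. At an adjusted p below 0.05 and any fold, 7 members were higher and 1 was lower, beside 42.9% and 25% of all genes. After Pcdhgc3, the changes were 0.94 for Pcdhga5, 0.87 for Pcdhga4, 0.83 for the C-type Pcdhgc5, 0.69 for Pcdhga10 and 0.63 for both Pcdhga3 and Pcdhgb7. Pcdhga8 was again lower, at 1.11, 1.37 and 1.19 TPM and a log2 change of -0.64 (SE 0.20, limma adjusted p = 0.0112). The median member changed by 0.25 on the log2 scale, beside 0.13 over all genes, and centring turned the members' median to -0.04 because it moved the changes of all genes down by 0.29.

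After 96 h, 10 of 23 tested members were called higher and 1 lower, beside 20.3% and 12.4% of all tested genes. Pcdhb22, Pcdhgb1 and Pcdhgc4 would not have passed the filter without their 96 h libraries, nor Pcdhga6 without its DMSO libraries. Apart from these 4, whose testing depended on the groups compared, 8 of 19 members were called higher and 1 lower, beside 17.8% and 12.8% of genes chosen in the same way. The median member changed by 0.96 on the log2 scale, beside 0.05 over all genes, and by 0.69 with centring. The 5 largest rises belonged to Pcdhgc5, Pcdhgc3, Pcdhgb1, Pcdhgb2 and Pcdhga10. Pcdhgc5 stood at 0.745, 1.32 and 0.924 TPM in DMSO and 7.00, 6.51 and 7.04 TPM at 96 h, for a log2 change of 2.31 (SE 0.16, limma adjusted p = 3.5e-09). Pcdhgc3 reached 54.1, 52.5 and 57.0 TPM, a log2 change of 2.16 (SE 0.08, limma adjusted p = 2.95e-12). For neither C-type gene did any 96 h library come near the DMSO range.

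Pcdhgb1, one of those 4, stood at 0.529, 0.462 and 0.675 TPM in DMSO and 4.87, 7.42 and 1.73 TPM at 96 h, for a log2 change of 2.12, given as a description because of the filter. The groups did not overlap, but its 3 libraries at 96 h were far apart. Pcdhgb2 stood at 2.34, 1.04 and 1.31 TPM in DMSO and 7.64, 7.29 and 8.88 TPM at 96 h (log2 change 2.08, SE 0.31, limma adjusted p = 2.05e-05). Pcdhga10 stood at 1.31, 1.78 and 1.46 TPM and then 5.15, 5.13 and 6.63 TPM (log2 change 1.60, SE 0.17, limma adjusted p = 4.79e-07). Neither of these genes overlapped between the groups. The other called rises were 1.57 for Pcdhgb4, 1.52 for Pcdhb22, 1.51 for Pcdhgb5, 1.42 for Pcdhgb8 and 1.33 for Pcdhgb7. Pcdhgb8 was the least firm of them: its 96 h libraries stood at 3.45, 12.6 and 3.06 TPM, and the call was lost without 96 h replicate 2, without DMSO replicate 1, without a filter and with centring. Among the subfamilies, 6 of the 7 Pcdhgb genes, 1 of 12 Pcdhga genes and 2 of 3 Pcdhgc genes were called higher, beside 20.3% of all tested genes. The Pcdhgb count includes Pcdhgb1, which passed the filter only through its 96 h libraries, and the less firm Pcdhgb8.

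In RNA-seq, Pcdhga8 ran against its neighbours, though the split of shared-exon reads among members is uncertain. It stood at 0.709, 0.882 and 0.556 TPM at 96 h, below each DMSO library, with a log2 change of -1.15 (SE 0.20, limma adjusted p = 9.76e-05). The flanking genes Pcdhgb4 and Pcdhgb5 were both called higher at the same time. Pcdhga4 showed a different course, at 1.21, 1.42 and 1.05 TPM in DMSO, 2.14, 2.74 and 3.14 TPM at 24 h and 1.22, 0.841 and 0.643 TPM at 96 h. It was higher than DMSO in each 24 h library and back within or below the DMSO range by 96 h.

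Pcdhb22, the last gene of the Pcdhb cluster (chr18:37517871-37524479), was the only Pcdhb member to pass the filter in the time course, and it passed through its 96 h libraries and so had to differ. It stood at 0.166, 0.150 and 0.225 TPM in DMSO, 0.195, 0.308 and 0.450 TPM at 24 h and 1.46, 1.42 and 1.48 TPM at 96 h. Its log2 change of 1.52 is likewise a description. In the Pcdha cluster, Pcdha11 (ENSMUSG00000007440) had the highest mean at 96 h, at 0.824, 0.568 and 1.04 TPM against 0.0608, 0.062 and 0.0661 TPM in DMSO. It was not tested, because fewer than 3 libraries reached 1 TPM.

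**Figure D3:**
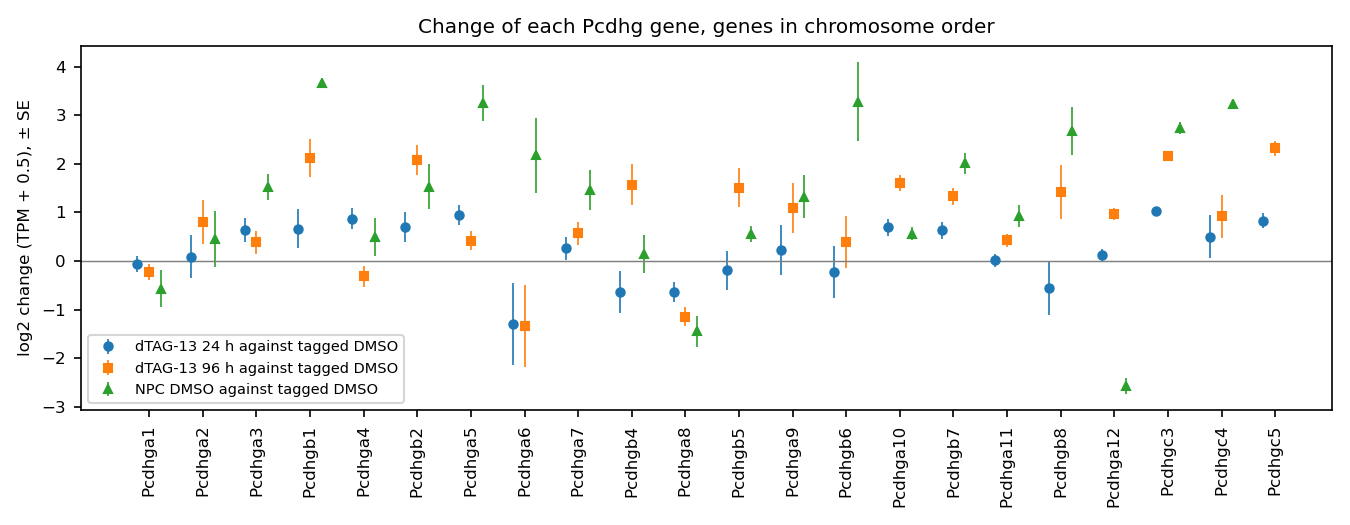
Log2 change with its standard error for each Pcdhg gene in chromosome order, at 24 h and 96 h of dTAG-13 and in NPCs, each against the same 3 DMSO libraries of tagged mESCs. The 3 series share their control, Pcdhgc5 has no NPC value because it was not tested there, and Pcdhga8 is below 0 in all 3, at -0.64, -1.15 and -1.45.

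Other cell markers moved with the 96 h values. At this time 20.3% of all tested genes were called higher and 12.4% lower. Of 11 tested feeder fibroblast markers, 9 were called higher at 96 h and 0 lower, and the list of 12 summed to between 2833 and 2948 TPM, against 319 to 334 TPM in DMSO, where Lum was listed at 0. Most of that sum was Tagln, and Col1a1 rose from a mean of 8.16 to 183 TPM. Of 8 endoderm markers, 5 were called higher and 0 lower, with sums of 343 to 354 TPM at 96 h and 64.4 to 71.3 TPM in DMSO. All 9 pluripotency markers were called lower, with sums of 405 to 478 TPM at 96 h. Of the neural lists, 3 of 7 tested neuron markers and 3 of 8 tested neural progenitor markers were called lower, and 1, Vim, was called higher. Their sums were nonetheless higher at 96 h. The neural progenitor list summed to 1361 to 1404 TPM, against 482 to 493 TPM in DMSO. The neuron list summed to 172 to 182 TPM, against 155 to 158 TPM. The part of these cells in the protocadherin values was not tested.

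Between 24 h and 96 h, 8 of 23 tested members were called higher and 1 lower, beside 13.7% and 16.5% of all tested genes. Apart from the 3 members that needed the 96 h libraries to pass the filter, 6 of 20 were higher and 1 lower, beside 11.7% and 16% of genes chosen in the same way. Pcdhgb4 rose most, from 0.797, 2.77 and 2.87 TPM at 24 h to 11.6, 9.54 and 11.3 TPM at 96 h (log2 change 2.22, SE 0.43, limma adjusted p = 0.000266). It was followed by Pcdhgb8 at 1.98, Pcdhgb5 at 1.70, Pcdhgc5 at 1.49 and Pcdhgb1 at 1.45. Pcdhgb2, Pcdhb22 and Pcdhgc3 rose by 1.38, 1.27 and 1.14. The member called lower was Pcdhga4, with a log2 change of -1.19 (SE 0.21, limma adjusted p = 0.000123). The Pcdhgb1 libraries overlapped between these times, and those of the other called members did not. Of all tested genes, 38.2% lay apart upward and 42.7% downward. For Pcdhb22 the gap is a description, because it passed the filter through its 96 h libraries.

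The C-type genes differed from each other. Pcdhgc3 and Pcdhgc5 stayed within the DMSO range or close to it at 2 h (11.6, 13.6 and 11.1 TPM, and 1.04, 0.632 and 0.891 TPM) and both rose from 24 h on. Pcdhgc4 stood at 0.225, 0.252 and 0.395 TPM in DMSO, 0.590, 0.624 and 0.622 TPM at 24 h and 1.00, 0.798 and 1.19 TPM at 96 h, where its log2 difference of 0.92 was not called. Its spread was set by replicate 1 at 2 h, which read 3.38 TPM against 0.253 and 0.301 TPM in the others. In the Pcdha cluster, Pcdhac1 was listed at 0 in all 3 DMSO and all 3 96 h libraries. Pcdhac2 read 0.0644, 0.187 and 0.0894 TPM in DMSO and 0.169, 0.156 and 0.169 TPM at 96 h, with overlap.

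Nascent RNA was compared over the whole gene spans, and these are nested: each Pcdhg gene runs from its own start to the shared 3' end, so neighbouring members counted nearly the same reads and are not separate measurements. The 22 Pcdhg genes passed the filter of 0.5 FPKM, and Pcdha and Pcdhb genes did not, with DMSO means of 0.0564 FPKM at most. At 2 h, 0 members were called higher (0.127% of all genes) or lower (0.0973%) and 4 had an unadjusted p below 0.05. All 22 nonetheless had their 3 libraries below the 3 DMSO libraries, which 17.1% of all genes did, with log2 changes from -0.21 to -0.09. At 6 h, 0 members were called higher (0.374%) or lower (0.195%), and 7 were higher at an adjusted p below 0.05 and any fold, beside 7.82% of all genes. These 7 lay at the 3' end of the Pcdhga and Pcdhgb series, from Pcdhga9 to Pcdhga12, with log2 changes from 0.20 to 0.24.

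At 24 h, 0 of the 22 nested spans passed 2-fold (2.49% of all genes higher and 0.906% lower), but all 22 were higher at an adjusted p below 0.05, beside 32.3% of all genes. Pcdhgc3 stood at 0.988, 1.12 and 1.05 FPKM in DMSO, 0.923, 0.896 and 0.895 FPKM at 2 h, 1.28, 1.24 and 1.12 FPKM at 6 h and 1.91, 1.83 and 1.88 FPKM at 24 h. Its log2 change at 24 h was 0.61 (SE 0.05, limma adjusted p = 5.38e-05), with no overlap. Pcdhgc4 and Pcdhgc5 changed by 0.61 and 0.58, and the 19 spans that start further upstream by 0.39 to 0.42. With centring, 5 of the 22 spans were still higher at an adjusted p below 0.05 at 24 h and 0 at 6 h. The share of all genes was not taken for the centred fit, so these counts of nested spans are descriptions. Pcdhac1 and Pcdhac2 were not tested, at 0.0123 and 0.0184 FPKM in DMSO and 0.0322 and 0.0489 FPKM at 24 h on average.

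Because the spans are nested, the signal between one start and the next could be taken by difference, an analysis chosen after seeing the data and given without a test. Of the 22 Pcdhg intervals, 17 had their 3 libraries at 24 h above the 3 DMSO libraries, 0 had them below and 5 overlapped. Over all genes in the table that passed the filter, whole spans lay above in 41.1% and below in 8.52%. At 6 h, 2 intervals were above, 0 below and 20 overlapped, beside 24% and 7.55% of genes above and below, and at 2 h the counts were 1, 8 and 13, beside 8.35% and 17.1%. The interval from the start of Pcdhgc3 to that of Pcdhgc4 read 0.724, 1.09 and 0.835 FPKM in DMSO and 1.65, 1.60 and 1.65 FPKM at 24 h. The next interval, from Pcdhgc4 to Pcdhgc5, read 0.495, 0.501 and 0.613 FPKM and then 1.21, 1.36 and 1.53 FPKM. The last, from Pcdhgc5 to the shared end, read 1.19, 1.25 and 1.22 FPKM and then 2.15, 2.01 and 2.04 FPKM. In these 3 intervals the groups were far apart, at 1.85, 2.55 and 1.70 times DMSO in mean. The 40.8 kb between Pcdhga12 and Pcdhgc3, just upstream, rose less, from 0.572, 0.662 and 0.651 FPKM to 0.722, 0.737 and 0.764 FPKM, also without overlap. As ratios the C-type intervals did not stand out. Those from Pcdhga2, Pcdhga3, Pcdhgb2, Pcdhga5 and Pcdhga6 reached 2.21, 2.32, 2.33, 2.38 and 3.31 times DMSO, without overlap. The remaining upstream intervals ran from 0.995 (Pcdhga11) to 2.03 (Pcdhgb5). At the other end, the interval of Pcdhga1 overlapped, at 0.861, 1.32 and 1.36 FPKM and then 1.61, 1.46 and 1.36 FPKM. The interval from Pcdhga8, which was lower in RNA-seq at 24 h, to Pcdhgb5 was higher here. It read 0.621, 0.808 and 0.926 FPKM and then 1.19, 1.03 and 1.69 FPKM, without overlap. Genes that start upstream also run across this interval.

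**Figure D4:**
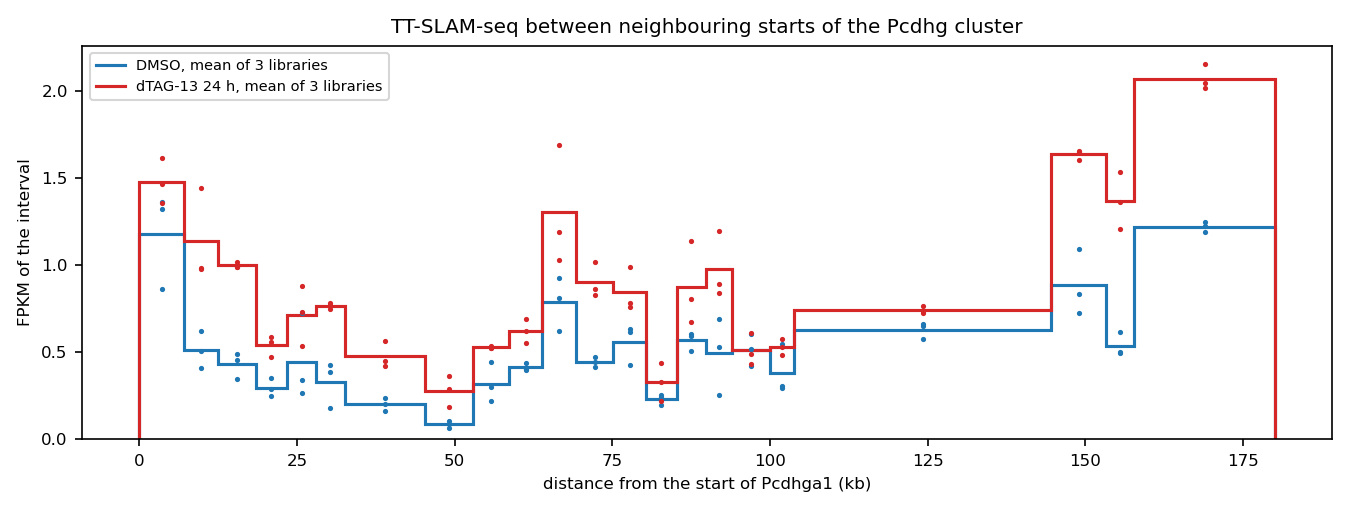
TT-SLAM-seq FPKM of each interval between neighbouring starts of the Pcdhg cluster against the distance from the start of Pcdhga1 in kb, with lines at the means of 3 DMSO and 3 libraries at 24 h of dTAG-13 and points for single libraries. In FPKM the lines are furthest apart over the 3 C-type intervals at the right, where the means go from 0.884 to 1.64, from 0.536 to 1.37 and from 1.22 to 2.07 FPKM. As a ratio to DMSO the interval from Pcdhga6 rose most, 3.31 times.

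In the shERV line, the summed level of each cluster was higher with dTAG-13 and lower with dTAG-13 and Dox, in both cases by less than 2-fold, and 0 members were called. The Pcdhg sum was 57.2, 62.5 and 61.2 TPM in DMSO, 85.4, 83.1 and 87.1 TPM with dTAG-13 and 64.3, 65.1 and 66.0 TPM with dTAG-13 and Dox. The Pcdha sums were 0.856, 0.925 and 0.733 TPM, then 1.31, 1.42 and 1.43 TPM, then 1.16, 0.696 and 1.05 TPM, and the Pcdhb sums 0.996, 1.07 and 1.17 TPM, then 1.98, 1.63 and 1.97 TPM, then 1.43, 0.965 and 1.09 TPM. For every cluster the dTAG-13 libraries lay above the DMSO libraries and above those with Dox. Of all tested genes, 45% had their 3 dTAG-13 libraries above DMSO, and 36% had those with Dox below dTAG-13. The ratios of the mean sums were 1.66, 1.72 and 1.41 for Pcdha, Pcdhb and Pcdhg with dTAG-13, and 0.695, 0.624 and 0.765 when Dox was added.

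With dTAG-13 against DMSO, 0 of 19 tested members, all Pcdhg genes, were called higher (2.38% of all genes) or lower (1.44%), and 12 were higher at an adjusted p below 0.05 and any fold, beside 41.2% of all genes. Pcdhgb4 stood at 3.86, 4.1 and 3.66 TPM in DMSO and 6.92, 6.66 and 7.30 TPM with dTAG-13, a log2 change of 0.77 (SE 0.09, limma adjusted p = 2.23e-05). Pcdhgc3 stood at 17.5, 19.7 and 18.8 TPM and then 27.3, 26.5 and 27.7 TPM (0.53, SE 0.05, limma adjusted p = 7.19e-06). Both were without overlap, as was Pcdhgc5, which changed by 0.56. Pcdhgc4, below the filter here, averaged 0.704 TPM in DMSO and 0.913 TPM with dTAG-13.

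With Dox added, 0 of 19 were called higher (1.49%) or lower (1.96%), and 10 were lower at an adjusted p below 0.05 and any fold, beside 29.3% of all genes. Pcdhgb4 returned to 4.46, 3.74 and 4.60 TPM, a log2 change of -0.65 (SE 0.09, limma adjusted p = 0.000109), overlapping its DMSO libraries. Pcdhgc3 was at 19.4, 19.8 and 19.4 TPM (-0.47, SE 0.05, limma adjusted p = 2.65e-05), and Pcdhgc5 changed by -0.59. The 2 contrasts share the dTAG-13 libraries and are not independent. The summed feeder fibroblast markers moved in the same pattern, at 769 to 834 TPM in DMSO, 1445 to 1563 TPM with dTAG-13 and 805 to 835 TPM with Dox. Of 10 tested, 1 was called higher with dTAG-13 (Tagln, 1.01), beside 2.38% of all genes, while Col1a1 averaged 72.4 TPM in DMSO and 70.6 TPM with dTAG-13. In these groups 6 of 9 pluripotency markers were called lower with dTAG-13 and 6 higher with Dox, beside 1.44% and 1.49% of all genes. Their part in the result was not tested.

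An interaction term tested whether the shERV cells and the time course cells responded differently at 24 h. Of 20 tested members, 1 differed by over 2-fold upward in the shERV line and 0 downward, beside 2.13% and 6.64% of all genes. These counts depended on the setting: with a pseudocount of 0.1 they were 2 and 2, and leaving out 1 library gave 0 to 2 upward and 0 to 2 downward, the downward ones being Pcdhga4 and Pcdhga5. For Pcdhgb4 the change in the shERV line exceeded that in the time course by 1.42 on the log2 scale (SE 0.42, limma adjusted p = 0.0115). In the time course its libraries at 24 h overlapped DMSO, at 5.02, 2.15 and 3.24 TPM and then 0.797, 2.77 and 2.87 TPM, the lowest being the library of least depth. Without that library the difference was 0.96 and was not called, and Pcdhga4 was called downward instead (-1.09). For Pcdhgc3 the rise was smaller in the shERV line, by 0.49 on the log2 scale (difference -0.49, SE 0.09, limma adjusted p = 0.000289). The libraries of the shERV line were made from total RNA and those of the time course from mRNA, and line and library method cannot be told apart.

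In parental mESCs the clusters stood lower than in the tagged line. The Pcdhg sum was 41.4, 40.3 and 40.4 TPM, 0.705 of that in tagged cells in DMSO, with no overlap. The Pcdha sum was 0.102, 0.220 and 0.251 TPM and the Pcdhb sum 0.292, 0.409 and 0.492 TPM, also without overlap. Of all tested genes, 43.5% had their 3 parental libraries below the 3 tagged DMSO libraries. Of 51 members tested, 0 were called higher (2.25% of all genes) and 2 lower (9.15%). Pcdhga8, 1 of these 2, would not have passed the filter without its tagged DMSO libraries. Apart from it, 0 of 50 were called higher and 1 lower, beside 1.88% and 7% of genes chosen in the same way. Of the 51, 34 passed the filter only through the NPC libraries, among them all tested Pcdha and Pcdhb genes. Means of Pcdha and Pcdhb genes were at most 0.104 TPM in parental and 0.181 TPM in tagged DMSO cells. On the log2(TPM + 0.5) scale such genes could hardly reach 2-fold. Pcdhga8 stood at 0.691, 0.705 and 0 TPM (log2 difference -1.58), below each tagged DMSO library, which is a description because of the filter. Pcdhgb4 stood at 0.513, 0.704 and 1.31 TPM (-1.54, SE 0.39, limma adjusted p = 0.00606), also below each tagged DMSO library. At any fold, 10 members were lower at an adjusted p below 0.05, beside 41% of all genes, Pcdhgc3 among them at 6.45, 6.22 and 9.04 TPM (-0.68, SE 0.12, limma adjusted p = 0.000912), and Pcdhgc4 at -0.38. Centring, with a shift of -0.19, gave 8 members higher and 6 lower, so the direction of small differences rested on scaling. The share of all genes was not taken for that fit. The shift applies equally to members near the floor. Parental cells also differed in culture: 6 of 11 tested feeder fibroblast markers were called higher and 1 lower, beside 2.25% and 9.15% of all genes. That one was Tagln, and the list of 12 summed to 157 to 160 TPM in parental cells, against 319 to 334 TPM in tagged DMSO cells. Tag and culture cannot be told apart.

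In NPCs all 3 clusters were expressed, and the Pcdha and Pcdhb clusters differed most from mESCs. The Pcdha sum was 46.7, 49.1 and 49.2 TPM, 63.5 times that in tagged mESCs in DMSO, and the Pcdhb sum was 88.1, 90.2 and 85.9 TPM, 102 times. The Pcdhg sum was 226, 222 and 219 TPM, 3.85 times. In mean level, 12 of 14 Pcdha, 19 of 22 Pcdhb and 19 of 22 Pcdhg members reached 1 TPM. NPCs and mESCs also differed in medium and substrate. The neural progenitor list was called higher in 12 of 12 markers and the neuron list in 7 of 8, beside 25.9% of all tested genes. RNA of neurons and of progenitors was not told apart.

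Of 51 members tested, 42 were called higher in NPCs and 2 lower, beside 25.9% and 20.7% of all tested genes. The calls were 11 of 11 tested Pcdha genes, 19 of 19 Pcdhb genes and 12 of 21 Pcdhg genes. All 30 tested Pcdha and Pcdhb genes, with Pcdhga6, Pcdhgb1, Pcdhgb6 and Pcdhgc4, would not have passed the filter without the NPC libraries, nor Pcdhga8 without those in DMSO. For these 35 a difference was built into the choice, so their counts and differences are descriptions. Of the other 16, all Pcdhg genes, 8 were called higher and 1 lower, beside 20.6% and 19.9% of genes chosen in the same way. Not tested were Pcdha6, Pcdha8, Pcdhac1, Pcdhb1, Pcdhb13, Pcdhb14 and Pcdhgc5.

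The largest differences were those of Pcdhb17, Pcdha4, Pcdhac2, Pcdhb20 and Pcdhb19, with log2 values of 4.27, 4.05, 3.93, 3.86 and 3.85. Pcdhb17 stood at 0.0409, 0.0357 and 0.0615 TPM in mESCs and 9.76, 10.2 and 10.2 TPM in NPCs. Pcdha4 stood at 0.0969, 0.0530 and 0.0207 TPM and then 9.0, 8.91 and 8.27 TPM. The C-type Pcdhac2 stood at 9.15, 8.93 and 8.38 TPM in NPCs. In each of these the groups were more than an order of magnitude apart. Among the other members with high means over all libraries, Pcdha3 stood at 5.02, 6.28 and 5.13 TPM, Pcdhb20 at 6.96, 7.22 and 7.21 TPM and Pcdhb22 at 5.39, 5.65 and 5.70 TPM in NPCs. At the low end, Pcdhac1 reached 0.437, 0.428 and 0.582 TPM and Pcdhb1 no more than 0.197 TPM.

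Within the Pcdhg cluster, NPCs did not repeat the order of the 96 h samples. Pcdhgc3 stood at 80.8, 82.8 and 80.0 TPM (log2 difference 2.73, SE 0.12, limma adjusted p = 1.29e-08) and Pcdhgc4 at 6.56, 7.28 and 6.91 TPM (3.23, a description). Pcdhgc5, which rose at 96 h of dTAG-13, read 0.863, 0.790 and 0.786 TPM in NPCs, within its mESC range in DMSO. Pcdhgc3 made up 36.5% of the Pcdhg sum on average both in NPCs and at 96 h of dTAG-13. Pcdhga12 stood at 3.54, 4.63 and 3.60 TPM in DMSO, 7.81, 8.01 and 8.42 TPM at 96 h and 0.215, 0.276 and 0.227 TPM in NPCs, where it was called lower (-2.57, SE 0.16, limma adjusted p = 1.35e-07). The other gene called lower was Pcdhga8, at 0.538, 0.509 and 0.406 TPM (-1.45). The call of Pcdhga6 was lost in 5 of 6 fits that left out 1 library, and that of Pcdhga9 without NPC replicate 2 or DMSO replicate 1.

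H3K9me3, the mark of TRIM28-dependent silencing, was compared as the length of each cluster under the 10000 peaks of highest fold enrichment in each library. In the Pcdha cluster this length was 9.54, 8.85 and 10.7 kb in DMSO and 0.601, 3.25 and 0.675 kb after 24 h of dTAG-13, a difference of -8.20 kb. In the Pcdhb cluster it was 7.05, 10.1 and 8.34 kb and then 0.234, 0.571 and 0 kb, a difference of -8.23 kb. Both were without overlap, and the two-sided exact permutation test gave p = 0.1 for each, the smallest that 3 against 3 libraries allow. In the Pcdhg cluster the groups overlapped, at 6.24, 3.31 and 8.38 kb and 0.434, 11.9 and 0 kb (exact permutation p = 0.8). With all deposited peaks they were narrowly apart, at 25.2, 24.5 and 22 kb and 0.889, 21.8 and 9.74 kb, a difference of -13.07 kb in place of -1.85 kb, so the comparison in this cluster depended on the peaks counted. The lowest of these, dTAG-13 replicate 1, had 11474 deposited peaks, against 104579 to 147611 in the other libraries. The 10000 peaks of highest fold covered 22.9, 36.6 and 28.6 Mb of the genome in DMSO and 4.89, 12.6 and 16.1 Mb with dTAG-13, so covered length was lower genome-wide as well. Per Mb of these peaks, the Pcdha length was 0.417, 0.242 and 0.375 kb in DMSO and 0.123, 0.257 and 0.0419 kb with dTAG-13, with overlap. The Pcdhb length per Mb was 0.309, 0.276 and 0.292 kb and then 0.0479, 0.0452 and 0 kb, without overlap. In Pcdhg the groups overlapped on this scale too.

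**Figure D5:**
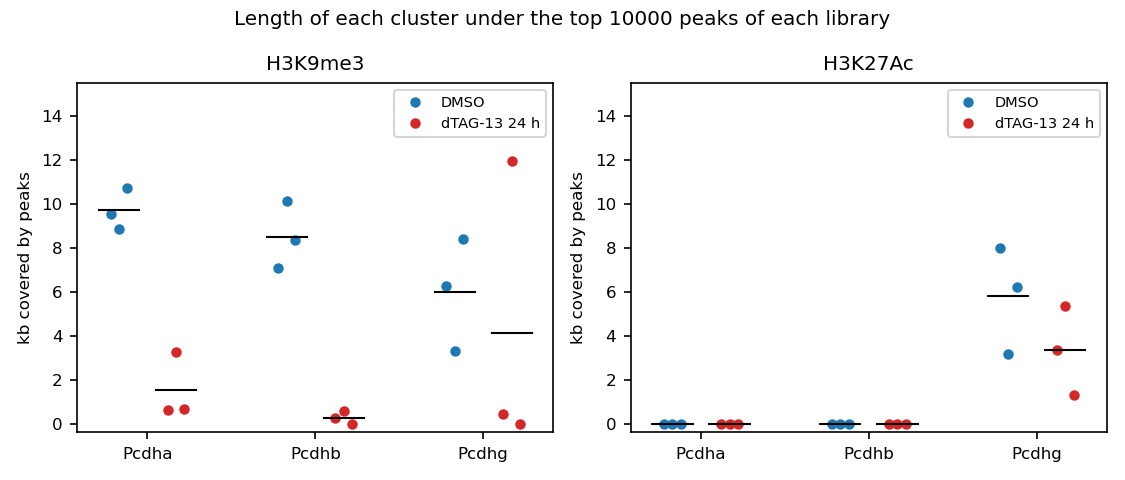
Length in kb of each cluster under the 10000 peaks of highest fold enrichment of H3K9me3 (left) and H3K27Ac (right), with 1 point per library and a line at the mean of 3. For H3K9me3 the DMSO libraries lie above the dTAG-13 libraries in Pcdha and Pcdhb and overlap them in Pcdhg, and for H3K27Ac only Pcdhg has any covered length.

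Regions below were drawn from peaks found in at least 2 libraries of 1 group, so a higher fold in that group is built into the choice and is given as a description. Most of the Pcdha coverage in DMSO lay in 1 region, chr18:36980038-36989813 (mm10), between Pcdha7 and Pcdha8. It was 74.3% repeat and overlapped an exon of the pseudogene Gm36858 but none of a member. Its maximal fold enrichment was 4.68, 4.41 and 4.39 in DMSO, and with dTAG-13 replicate 1 had no peak there while replicates 2 and 3 reached 3.47 and 2.95. In the Pcdhb cluster the main region was chr18:37363635-37371873, between Pcdhb8 and Pcdhb9, with 95.9% repeat and no exon. Its fold enrichment was 5.09, 4.62 and 4.36 in DMSO and 3.61, 3.14 and 2.93 with dTAG-13, each library below the DMSO range. A smaller region of 1.86 kb, chr18:37386286-37388149, lay in the same gap and was 96.7% repeat.

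In the Pcdhg cluster the H3K9me3 regions lay on member exons, not on repeats. They covered chr18:37720738-37723630 over an exon of Pcdhgb4 (8.78% repeat) and chr18:37730922-37734049 over 1 of Pcdhgb5 (7.19%). The Pcdhgb4 region had a fold enrichment of 3.97, 3.93 and 3.77 in DMSO and no peak, 3.38 and 2.53 with dTAG-13. The Pcdhgb5 region had 4.82, 3.14 and 3.87 and then 3.60, 4.32 and 2.62, with overlap. Within 1 kb of a member's start, 2 of 58 members had an H3K9me3 peak in at least 2 DMSO libraries, Pcdhgb4 and Pcdhgb5, beside 1.05% of all genes. With dTAG-13 there was 1, Pcdhgb5, beside 0.973%.

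H3K27Ac, RNAPII and MED23 peaks of this rank lay in the Pcdhg cluster only and at no member start in 2 or more libraries. The counts were 0 of 58 members for H3K27Ac in DMSO and with dTAG-13 (13.4% and 9.51% of all genes), for RNAPII (14.8% and 10.2%) and for MED23 (8.83% and 4.17%). H3K27Ac peaks covered 7.97, 3.17 and 6.20 kb of the Pcdhg cluster in DMSO and 3.35, 5.35 and 1.30 kb with dTAG-13, with overlap (exact permutation p = 0.3). With all deposited peaks the difference was -5.73 kb in place of -2.45 kb, and the groups still overlapped. The H3K27Ac peaks used covered 18.0, 18.4 and 16.3 Mb of the genome in DMSO and 8.14, 18.1 and 10.5 Mb with dTAG-13. Deposited H3K27Ac peaks numbered 88050, 117475 and 96407, and then 30259, 117348 and 45662. In DMSO the H3K27Ac peaks of the Pcdhg cluster lay downstream of the start of Pcdhgc5, at chr18:37821853-37828226 over shared constant exons and at chr18:37834614-37837058. MED23, a Mediator subunit, had peaks in the same stretch, at chr18:37823234-37827326 and chr18:37835240-37836999. The fold enrichment of the second of these was 22.1 and 24.4 in DMSO and 6.95 and 8.46 with dTAG-13. MED23 peaks in the 10000 used had a median fold of 15.0 and 14.6 in DMSO and 6.30 and 6.39 with dTAG-13, so fold fell across the genome too.

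In the 40.8 kb between Pcdhga12 and Pcdhgc3, an H3K27Ac region at chr18:37771936-37773327 was among the peaks used in all 3 dTAG-13 libraries, 33.7 kb before Pcdhgc3. Its maximal fold was 2.35, 5.47 and 3.87 in DMSO and 5.79, 6.82 and 6.83 with dTAG-13, the group whose peaks defined the region. MED23 was there in both groups, at 11.3 and 10.1 in DMSO and 6.86 and 8.17 with dTAG-13. RNAPII had a peak at the same place, also drawn from the dTAG-13 libraries, with a fold of 6.64 and 4.98 in the 2 dTAG-13 libraries, and 4.48 and none in DMSO. An RNAPII peak at chr18:37822079-37823025, over an exon of Pcdhgc5, had a fold of 9.04 and 10.6 in DMSO and was in neither dTAG-13 library. The RNAPII lists held 19853 and 19194 peaks in DMSO and 8182 and 7689 with dTAG-13, and the median fold of those used was 8.75 and 8.48 and then 5.23 and 5.22, so peaks were fewer and lower across the genome too.

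Related gene families were counted for comparison. Over all tested genes, 20.3% were called higher and 12.4% lower at 96 h, and 25.9% and 20.7% in NPCs. Of the non-clustered protocadherins, cadherin-like adhesion genes elsewhere in the genome, 4 of 12 were tested in the time course. At 96 h, 2 were called higher and 0 lower: Pcdh7 (log2 change 4.21, from a mean of 0.444 to 16.8 TPM) and Pcdh18 (4.04, from 2.00 to 40.3 TPM). In NPCs 8 of 9 tested were higher and 0 lower, led by Pcdh8 at 6.55. Of the classical and related cadherins, 4 of 7 tested were higher at 96 h and 0 lower, led by Cdh2 (N-cadherin) at 2.96, and in NPCs 7 of 9 were higher and 2 lower, the latter being Cdh1 (E-cadherin) at -5.92 and Cdh3 at -4.52.

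Of 20 regulators of chromatin and looping at these clusters, 1 was called lower at 24 h and 3 at 96 h, beside 2.01% and 12.4% of all tested genes. At either time 0 were higher, beside 10.1% at 24 h and 20.3% at 96 h. Dnmt3b, a de novo DNA methyltransferase, went from a mean of 445 TPM in DMSO to 217 at 24 h (log2 change -1.04) and 87.3 at 96 h (-2.34), and to 14.6 TPM in NPCs. Dnmt3a changed by -1.74 and Rest, a repressor of neuronal genes, by -1.42 at 96 h. In NPCs 2 of the 20 were higher and 3 lower, beside 25.9% and 20.7% of all tested genes. The list also held Ctcf, the cohesin subunits, Smchd1 and Setdb1, none of which was called at 24 h or 96 h. Of 15 intracellular partners of clustered protocadherins, 4 were higher and 1 lower at 96 h, beside 20.3% and 12.4% of all tested genes. Those higher included Adam10, the protease that sheds their extracellular domain, at 2.02 and the kinases Src and Ptk2b at 1.61 and 1.20, and the lower was Wasf1, of the WAVE complex, at -1.11. In NPCs 5 of 14 tested were higher and 1 lower, beside 25.9% and 20.7%. Of 48 genes within or beside the clusters on chromosome 18, 20 were tested in the time course. At 24 h 1 was higher (Tmco6, 1.12) and 0 lower, beside 10.1% and 2.01% of all tested genes. At 96 h 3 were higher and 2 lower, led by Arap3 at 1.48, beside 20.3% and 12.4%. These tested genes had a median log2 change of -0.12 at 96 h, beside 0.96 for the tested members.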

How the data were processed

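For RNA-seq, the authors deposited 1 StringTie table per library, with TPM scaled to length and depth, FPKM, and read coverage, a signal not scaled by depth, used here only for relative depth. For TT-SLAM-seq they deposited FPKM per gene over its whole span, from converted reads; steps in low values were whole reads within 0.05 for 96.83% to 98.95% of values, at depths of 6.47 M to 24.2 M reads per library. For ChIP-seq the authors deposited peaks called per library, with fold enrichment (a ratio) and -log10 of p and q values. The submitters' processing notes name STAR 2.7.5a, StringTie 2.0.6, cutadapt 2.4, BWA, MACS2 and mm10, and settings of the peak caller are not given in the sources used here.

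Repeated gene IDs were summed. Genes with at least 1 TPM (or 0.5 FPKM) in at least 3 libraries of the fit were tested with limma 3.58.1 (R 4.3.3) after adding 0.5, with Benjamini-Hochberg adjustment over all tested genes, in 1 fit for each of the time course, TT-SLAM-seq, the shERV line, and tagged, parental and NPC libraries. The limma fit was tested on simulated data. Peaks were ranked by fold enrichment within each library. Named genes were the C-type members, up to 5 called rises and falls per comparison, the 3 highest members per cluster, Trim28 and up to 4 called genes per list; a few others were named after their values were seen. The members and lists were chosen with earlier results of these data known. Replicate numbers did not pair libraries. Hi-C was not used here.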

Additional observations from a re-analysis of the deposited data

Results flagged for a closer look

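For Pcdhgb4, the response to 24 h of dTAG-13 differed between experiments by the test of the difference itself: the log2 change in the shERV line minus that in the time course was 1.42 (SE 0.42, limma adjusted p = 0.0115), and the other 19 members tested were not called, though Pcdhga4, Pcdhga5 and Pcdhga8 were under some alternatives. The change was 0.77 in the shERV line, where all 3 dTAG-13 libraries were above DMSO, and -0.64 in the time course (SE 0.43, limma adjusted p = 0.199), where they overlapped. Left-out libraries moved the difference between 0.96 and 1.68, and it was not called without replicate 1 of 24 h dTAG-13.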

How the results depend on the processing

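Low levels limited these data: 35 members were not tested in the time course, and their changes rest on fractions of a TPM. Among counts of called members, a pseudocount of 0.1 gave 4 at 24 h (main value 1), 7 in parental cells (2) and 4 in the comparison of the shERV line with the time course (1, then 2 upward and 2 downward). The calls at 24 h were all higher and those in parental cells all lower, beside 13% and 12.7% of all genes in those directions. A mean of at least 3 TPM gave 0 at 6 h, 3 at 96 h, 3 from 24 h to 96 h, 0 in parental cells and 10 in NPCs, because fewer genes were tested. These counts stand without the shares of all genes and do not show a change in the members. Centring gave 0 at 24 h. A pseudocount of 0.05 with a filter of 0.1, chosen after seeing the data, gave 5 at 24 h, 17 at 96 h, 14 from 24 h to 96 h, 1 in the shERV line with dTAG-13 and 9 in parental cells. At 96 h these were 16 higher and 1 lower of 38 tested, beside 21.2% and 14.1% of all genes, and from 24 h to 96 h 13 and 1, beside 15.3% and 18.7%. At 24 h all 5 were higher, beside 13.4%, the 1 in the shERV line was higher, beside 4.52%, and the 9 in parental cells were lower, beside 15.6%. Whether added members passed this filter only through their high group was not tested. Leaving out 1 library gave 0 to 1 called at 6 h, 0 to 2 at 24 h, 10 to 13 at 96 h, 9 to 10 from 24 h to 96 h, 2 to 5 in parental cells, 42 to 44 in NPCs and 1 to 3 in the comparison of responses. At 2 h, in TT-SLAM-seq and in the shERV line it gave 0. Shares of all genes are not given for the fits that left out 1 library, which show only how far each count moved. The count at 24 h was 0 without DMSO replicate 1 and 2 without DMSO replicate 2 or 24 h replicate 3. It was 5 in parental cells without parental replicate 3, and 3 in the comparison of responses without DMSO replicate 2 or shERV dTAG-13 replicate 3. Without the C-type members the log2 ratio of Pcdhg sums was 0.96 at 96 h (1.37 with them) and 1.58 in NPCs (1.95).

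With the replicate block, 12 members were called at 96 h in place of 11, Pcdhga9 being added, and no other count changed. Same-numbered libraries did not deviate together, with correlations from -0.20 to 0.18, so the numbers were not taken as pairs.

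With the 5000 top peaks, the H3K9me3 difference in the Pcdhg cluster turned to 2.09 kb and the H3K27Ac difference to 1.98 kb. Leaving out 1 library gave H3K9me3 differences from -9.07 to -7.69 kb in Pcdha, from -8.95 to -7.43 kb in Pcdhb and from -5.76 to 0.21 kb in Pcdhg, where the sign turned without dTAG-13 replicate 3, and H3K27Ac differences from -3.75 to -1.35 kb in Pcdhg. With all deposited peaks, the mean number of members per library with a peak at the start was 10.7 for H3K9me3 in DMSO and 6.67 with dTAG-13, 3 and 1 for H3K27Ac, 1 and 0.5 for RNAPII, and 12.5 and 0 for MED23. Over all genes, such a peak lay at the start in 6.42% to 7.91% and 1.01% to 7.42% for H3K9me3, 27% to 28.9% and 17% to 29.2% for H3K27Ac, 20.9% and 10.7% to 11.7% for RNAPII, and 32.9% and 9.3% to 10.3% for MED23. The Pcdhg difference in covered length went from -1.85 to -13.07 kb for H3K9me3 and from -2.45 to -5.73 kb for H3K27Ac. The cause of these changes was not tested.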
